A study of Mus musculus with 8 samples.

Results

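Respiratory complex I and its assembly genes were examined as every gene of the authors' deposited table whose name starts with Nduf, with a minimum mean count of 10. This rule gave 45 of 17597 genes. It took 38 genes named as subunits and 7 named as assembly factors (names starting with Ndufaf), and no Nduf gene of the table lay below the minimum. The mean count is an average across all libraries after each library's counts were scaled by its size factor. The 45 genes together held 0.337% of the summed mean count of all genes.

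The RNA came from mouse embryonic stem cells of a Cast x 129S background, grown on inactivated mouse fibroblast feeders. In all of these cells the promoter of the endogenous Xist gene on 1 allele had been replaced by a TetOn promoter (the labels give the 129S allele and the study the Mus castaneus X chromosome), METTL3 carried the FKBP12 F36V degron tag (at its C terminus, as the study describes clones C3 and H5), and no doxycycline was added, so Xist was not induced. METTL3 catalyses the methylation of adenosines in RNA (N6-methyladenosine, m6A), and dTAG-13 is a small molecule that directs the tagged protein to destruction. One group of 4 libraries came from cells given dTAG-13 for 26 hours, and the other group of 4 came from untreated cells. Clones C3 and H5 each gave 2 replicates per group, and the study describes its RNA-seq repeats as independent, with the wells of a replicate divided from a common batch of cells. The authors' fit, as far as described, did not pair libraries by batch, so the p-values rest on the spread between libraries of a group. The comparison asks which transcripts differ in level once METTL3 has been depleted for about a day. Untagged cells given dTAG-13 were not among the 8 libraries, so an effect of the compound itself cannot be told apart from that of METTL3 loss. The study also reports that the protein METTL14, which pairs with METTL3, fell strongly after dTAG-13.

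Each value comes from the comparison that the authors ran between the groups, as a log2 fold change with its standard error (SE) from one DESeq2 fit of the 8 libraries. The table holds no value for a single library, so spread within a group is seen here through the SE, and groups could not be checked for overlap. Positive changes were taken to mean more RNA after dTAG-13. The table does not name its numerator, and under an inverted contrast every direction given here would change sign. A gene was called higher or lower at an adjusted p under 0.05. All 10 stem cell markers examined had mean counts between 1019 and 11934, and of these Fgf4 was higher and Tdgf1 and Dppa5a were lower. Of 18 fibroblast markers, 13 had a mean count of at least 10, with a median of 116 and a range from 10.8 to 4941. Fn1 (4941), Sparc (3052) and Vim (2073) lay within the range of the stem cell markers. Among the fibroblast markers, Loxl1 was higher and Vim was lower, and the part of feeder cells in the results was not tested. The level of Mettl3 RNA did not differ detectably (log2 fold change -0.092, SE 0.31, adjusted p = 0.886), and the degron acts on the protein. In bulk RNA, fewer cells of a type and less RNA per cell cannot be told apart.

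Complex I is the entry point of the respiratory chain. It takes electrons from NADH, passes them along iron-sulfur clusters to ubiquinone, and uses the energy to pump protons across the inner mitochondrial membrane. Its peripheral arm is built from an N module, which oxidises NADH, and a Q module, which reduces ubiquinone, while the membrane arm holds the proton pumps. Some core subunits are encoded in mitochondrial DNA and the others in the nucleus, and dedicated assembly factors join the modules or modify subunits without staying in the finished enzyme. The subunits encoded in mitochondrial DNA were not analysed here.

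Few genes of complex I changed in level. In the authors' deposited table, 3 of the 45 genes were higher with dTAG-13 and 1 was lower, while 41 were not called at an adjusted p under 0.05 (DESeq2). The background in the same table was 25.5% called among 13590 genes above the same minimum, with 13.5% higher and 12.0% lower, and 20.0% called among all 17597 genes. The 3 genes that rose, Ndufaf1, Ndufaf4 and Ndufaf7, were all assembly factors, and the gene that fell, Ndufb4, encodes a subunit. An unadjusted p under 0.05 was reached by 12 of the 45 genes, 4 of them higher and 8 lower. For 38 of the 45 genes the whole 95% interval of the change lay within 1.5-fold in either direction. The split of calls moved with the scaling. After the trend of the fold change with transcript GC content had been removed, 4 genes were higher and 5 were lower. Among all 13590 genes, that setting gave 1702 higher and 1330 lower. Re-centring on the median of genes at mean counts of 100 or more left 3 higher and 1 lower among the 45, and changed the split of all 13590 genes from 1832 higher and 1635 lower to 2145 higher and 1232 lower.

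**Figure D1:**
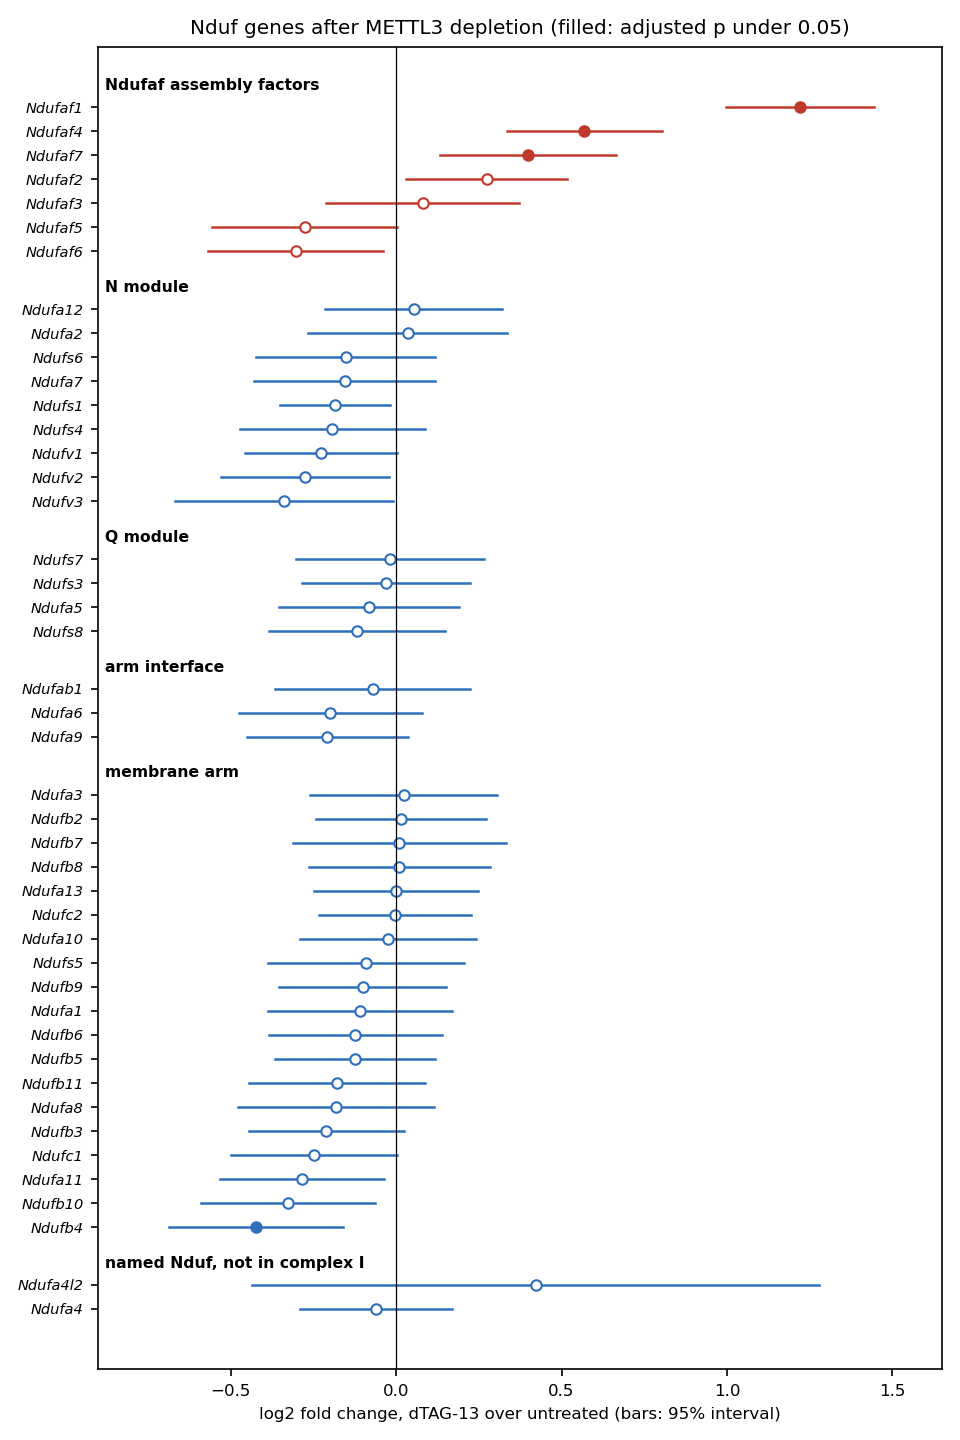
Log2 fold change (x axis, dTAG-13 over untreated) of 44 of the 45 Nduf genes, grouped by role, with assembly factors in red and genes named as subunits in blue. Points are the authors' fitted values, bars are 95% intervals, and filled points passed an adjusted p of 0.05: 3 assembly factors lay to the right of 0 and Ndufb4 to the left.

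Ndufaf1 showed the greatest change of the 45 genes. Its product is a core member of the mitochondrial complex I assembly (MCIA) complex, which builds an early part of the membrane arm. Ndufaf1 (chromosome 2, 119655446 to 119662827, minus strand, GRCm38) was measured at a mean count of 758, and its log2 fold change was 1.22 (SE 0.114, 95% interval 1.00 to 1.44), a 2.33-fold rise with an adjusted p of 4.07e-23 in the authors' DESeq2 table. It ranked 4 by p among all genes of the table, and 98.55% of the 13590 genes had a smaller value. The lower end of its interval was above the upper end of the interval of every complex I subunit.

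Ndufaf4 and Ndufaf7 rose by less. NDUFAF4 works with NDUFAF3 in the assembly of the Q module, and NDUFAF7 is a methyltransferase that modifies an arginine of a core subunit. Ndufaf4 (chromosome 4, 24898083 to 24905001, plus strand) was measured at a mean count of 1047, and its log2 fold change was 0.57 (SE 0.120, 95% interval 0.33 to 0.80, adjusted p = 5.04e-05 in the authors' DESeq2 table), or 1.48-fold. Ndufaf7 (chromosome 17, 78937136 to 78948052, plus strand) was measured at a mean count of 523, and its log2 fold change was 0.40 (SE 0.136, 95% interval 0.13 to 0.66, adjusted p = 0.0228 in the authors' DESeq2 table), or 1.32-fold. The intervals of Ndufaf4 and Ndufaf7 overlapped each other, and that of Ndufaf1 lay above both.

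The other 4 assembly factors did not pass the threshold, and their fitted values lay on both sides of 0. Ndufaf2 encodes a relative of the subunit NDUFA12 that acts late in assembly, and its log2 fold change was 0.27 (SE 0.124, adjusted p = 0.111 in the authors' DESeq2 table). Ndufaf3, the partner of Ndufaf4, had a log2 fold change of 0.080 (SE 0.149, adjusted p = 0.780), so only Ndufaf4 of both partners was called, and the value of Ndufaf3 was -0.01 with the GC trend removed. Whether those changes differ from each other was not tested. Ndufaf5 encodes an enzyme that hydroxylates an arginine of NDUFS7, and its log2 fold change was -0.28 (SE 0.143, adjusted p = 0.178). Ndufaf6, needed for an early step of assembly, had a log2 fold change of -0.30 (SE 0.135, adjusted p = 0.102). These last 2 genes also had the lowest mean counts of the assembly factors, 256 for Ndufaf5 and 187 for Ndufaf6. Per kb of transcript, the mean counts of the 7 assembly factors ran from 173 for Ndufaf6 to 553 for Ndufaf2, with a median of 288, against a median of 1073 per kb for the 38 genes named as subunits.

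Subunit transcripts changed little, and their fitted values lay mostly just below 0. Of the 38 genes named as subunits, 0 were higher and 1 was lower in the authors' DESeq2 table, and 7 had an unadjusted p under 0.05, all with values below 0. Their median log2 fold change was -0.12, with a range from -0.42 to 0.42, and 31 of the 38 (81.6%) lay below 0. That shift depended on the scaling: re-centring gave a median of -0.07 with 26 of 38 below 0, and removal of the mean count trend gave -0.05 with 25 of 38. Among 7585 genes with mean counts in the range of the Nduf genes other than Ndufa4l2, the median was -0.04, 55.2% lay below 0 and 28.2% were called. The 7 assembly factors had a median of 0.27 and a range from -0.30 to 1.22, so the medians differed by 0.39 on the log2 scale. The assembly factors were also more spread, with an SD across genes of 0.53 against 0.15 for the subunits. Without Ndufaf1 the median of the other 6 assembly factors was 0.18. These are descriptions over genes, which are not replicates, and the difference between both sets was not tested.

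**Figure D2:**
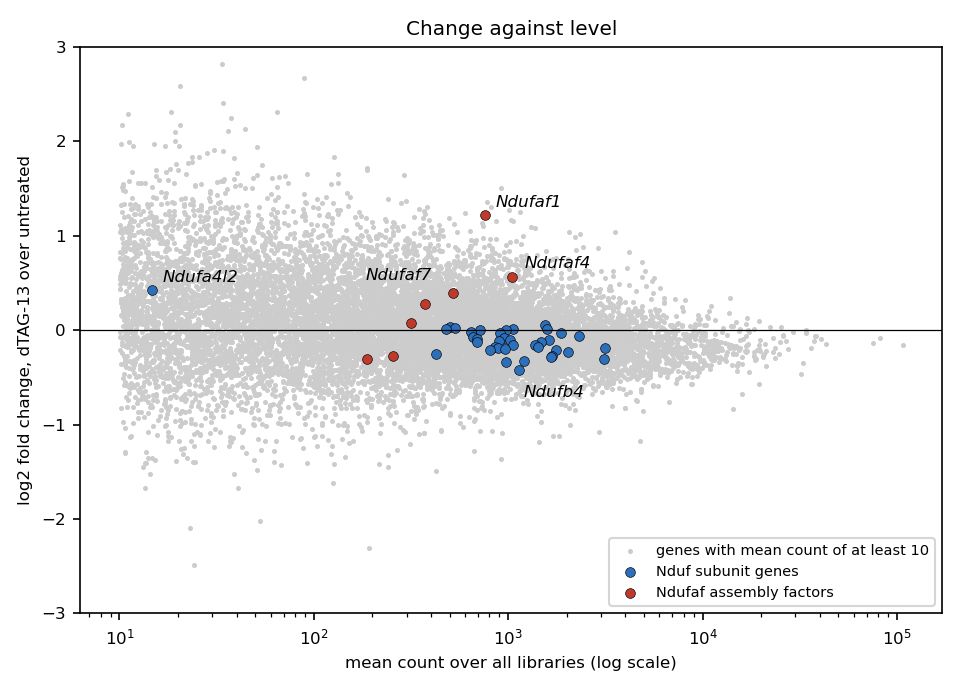
Log2 fold change (y axis, dTAG-13 over untreated) against mean count over all libraries (x axis, log scale) for 13590 genes (grey), the 38 genes named as subunits (blue) and the 7 assembly factors (red). Most subunits form a narrow band at or just below 0 at mean counts between 426 and 3130, Ndufa4l2 stands apart at 14.7, and Ndufaf1 lies near the upper edge of genes of its level.

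The N module carries the NADH-oxidising site. None of its 9 genes was called in the authors' DESeq2 table, 3 had an unadjusted p under 0.05, and the median log2 fold change was -0.18. Ndufs1, which encodes the largest subunit of the complex and holds several iron-sulfur clusters, had a mean count of 3130 and the smallest SE of the 45 genes, and its log2 fold change was -0.18 (SE 0.085, adjusted p = 0.119). Ndufv1, whose product binds NADH and the flavin cofactor, had a log2 fold change of -0.23 (SE 0.117, adjusted p = 0.176). Its partner Ndufv2, an iron-sulfur subunit, had a log2 fold change of -0.28 (SE 0.129, adjusted p = 0.126). The accessory subunit gene Ndufv3 had the lowest value of the module at -0.34 (SE 0.168, adjusted p = 0.156), with an SE above that of 84.2% of genes at a similar level. These 4 genes were thus all fitted below 0 without passing the threshold. Ndufa7, an accessory subunit gene of the same arm, was among the 3 with the highest mean count per kb (2596 per kb) and showed a log2 fold change of -0.16 (adjusted p = 0.494).

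The Q module hands electrons to ubiquinone. All 5 of its genes were fitted below 0 in the deposited scaling (3 of 5 after re-centring or removal of the mean count trend, where Ndufs3 and Ndufs7 lay above 0). Their median log2 fold change was -0.08, and 0 were called in the authors' DESeq2 table and 1 had an unadjusted p under 0.05. NDUFS3 and NDUFS8 are core subunits of the peripheral arm. The log2 fold change was -0.12 for Ndufs8 (adjusted p = 0.618) and -0.03 for Ndufs3 (adjusted p = 0.910). Ndufs7, which encodes the subunit with the terminal iron-sulfur cluster, had a log2 fold change of -0.02 (SE 0.145, adjusted p = 0.952). Of the 7 core subunits encoded in the nucleus, spread over both modules, all were fitted below 0 in the deposited scaling (median -0.18) and 5 of 7 under those alternatives, 3 had an unadjusted p under 0.05 and 0 were called. The 95% intervals of all 7 lay within 1.5-fold.

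At the joint between both arms, the genes Ndufa6, Ndufa9 and Ndufab1 had a median log2 fold change of -0.20, with 0 called in the authors' DESeq2 table and 0 at an unadjusted p under 0.05. The membrane arm contributed 19 accessory subunit genes, with a median of -0.11 and 15 values below 0 (12 under both of those alternatives). One of them was lower and 3 had an unadjusted p under 0.05. Ndufb4 (chromosome 16, 37647170 to 37654453, minus strand) encodes an accessory subunit of that arm and was the only subunit gene called. Its mean count was 1137 and its log2 fold change -0.42 (SE 0.135, 95% interval -0.69 to -0.16, adjusted p = 0.0129 in the authors' DESeq2 table), a ratio of 0.746. The call was lost once the trend of the fold change with mean count was removed (-0.34, adjusted p = 0.0593). Moreover, 390 bases (40.2%) of its transcript were identical to Ndufb4c, annotated as a processed pseudogene, so its count is uncertain where reads could not be placed. Ndufb10, another accessory gene of the arm, showed a log2 fold change of -0.33 (adjusted p = 0.0682). Ndufa11, with a mean count of 3039 per kb the second most abundant of the 45 genes per length, had a log2 fold change of -0.28 (SE 0.127, adjusted p = 0.102).

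Both remaining genes carry Nduf names although their products are not counted in complex I today. Ndufa4 encodes a subunit of cytochrome c oxidase. It had the highest mean count per kb of the 45 genes, 3812 per kb, and a log2 fold change of -0.062 (SE 0.117, adjusted p = 0.785 in the authors' DESeq2 table). Its relative Ndufa4l2, a gene known to respond to low oxygen, was hardly detected, at a mean count of 14.7, and its log2 fold change was 0.42 (SE 0.437, adjusted p = 0.571), and its interval from -0.44 to 1.28 spans both directions, so no difference was detectable at this depth. Without these 2 genes, the median log2 fold change over the 36 subunit genes was -0.12, with a highest value of 0.053, at Ndufa12.

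Several subunit genes share sequence with other genes. At 95% identity or more over at least 200 bases, 8 subunit genes had a copy elsewhere among the annotated transcripts, and no assembly factor had one. The longest shared stretch was that of Ndufs3, with 792 bases (75.7% of the transcript) at 98.6% identity to Gm12251. Exons of a gene on the opposite strand covered 10% or more of the transcript in 6 subunit genes, from 11.5% for Ndufa2 to 39.0% for Ndufb6, which overlaps Smim27. Whether the authors' counting used strand is uncertain. Among assembly factors only Ndufaf3 had such an overlap, of 3.23% with Impdh2. On the same strand, exons of other genes covered part of Ndufb9 (28.6%, Gm49356), Ndufb8 (19.7%, Gm20538) and Ndufb2 (3.32%, Gm42420). Overlap on the same strand was not a criterion of the selection that follows, so Ndufb9, Ndufb8 and Ndufb2 stayed in it. Leaving out the genes with a copy or with 10% or more of opposite overlap, and both genes outside complex I, left 30 genes, of which 3 were higher and 0 lower in the authors' DESeq2 table, with 5 of the 23 subunit genes at an unadjusted p under 0.05, all below 0. The median of these 23 subunit genes was -0.16.

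Assembly genes without an Ndufaf name in the deposited table changed in both directions. From a list of 16 names for other proteins that help to build complex I, 13 were in the table. The list held Tmem261 and Atp5sl also under their newer names, Dmac1 and Dmac2. Of the 13, 2 were higher, 3 were lower and 8 were not called in the authors' DESeq2 table (median log2 fold change 0.10). Among those not called was 1810043H04Rik (0.26, adjusted p = 0.384). This gene is now named Ndufaf8, and the rule did not take it because the table uses the older name. Tmem70, which encodes an assembly factor of ATP synthase that also acts on complex I, had a log2 fold change of 0.92 (SE 0.125, adjusted p = 3.37e-11). Atp5sl, now named Dmac2, encodes a factor of the distal membrane arm, and it rose by 0.34 on the log2 scale (adjusted p = 0.0306 in the authors' DESeq2 table), a call that was lost with the GC trend removed (0.27, adjusted p = 0.106). Among the genes that were lower, Tmem186 had a log2 fold change of -0.84 (SE 0.113, adjusted p = 2.04e-11), Tmem126a of -0.52 (adjusted p = 0.000171) and Timmdc1 of -0.47 (adjusted p = 0.000533). TMEM186 and TIMMDC1 act with the MCIA complex, as NDUFAF1 does, so genes whose products meet in the same assembly step changed in opposite directions. The further MCIA genes Acad9 (0.22, adjusted p = 0.149), Ecsit (0.10, adjusted p = 0.713) and Tmem126b (0.06, adjusted p = 0.857) were not called. Over the 20 assembly genes with and without an Ndufaf name, 5 were higher and 3 were lower (40.0% called). The share called was 2.63% of the 38 genes named as subunits and 25.5% of all 13590 genes above the minimum.

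For comparison, the median log2 fold change was -0.07 over 38 subunit genes of complexes II to V, of which 1 was higher, 2 were lower and 27 lay below 0. Over 77 mitochondrial ribosomal protein genes the median was 0.06, and 17 were higher and 7 lower (31.2% called). No test of a difference between these sets was made.

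**Figure D3:**
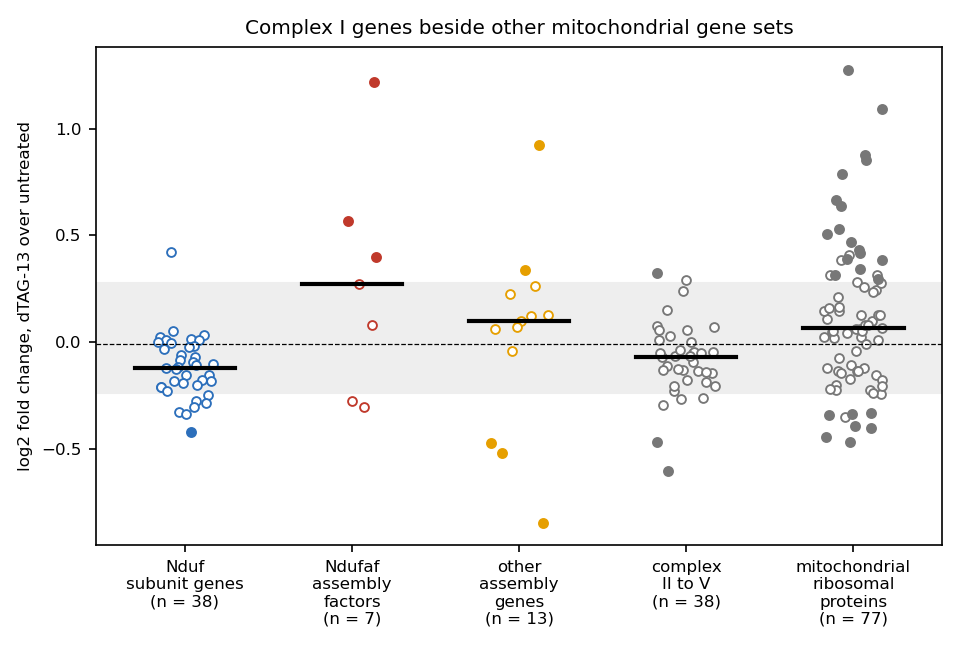
Log2 fold change (y axis, dTAG-13 over untreated) of single genes in 5 sets, each point a gene, filled where the adjusted p was under 0.05 and offset sideways at random for legibility, with a black bar at the median of the set. The grey band and dashed line give the interquartile range and the median (-0.01) of all 13590 genes: subunits of complex I and of complexes II to V cluster in the lower part of the band, and assembly genes spread beyond it on both sides.

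The transcripts of the Nduf genes were also described by features that the rule did not use. m6A is written mostly in a short sequence context of which GGACT is a common form, and is known to be concentrated in long internal exons and around stop codons. One transcript per gene was taken from the GENCODE vM21 annotation, and letters were counted on the transcript strand. The 38 genes named as subunits had short transcripts, with a median of 892 bases and a longest exon of 327 bases in the median, and the 7 assembly factors had medians of 1451 and 584 bases. Over the 13464 annotated genes above the minimum, the medians were 2978 and 1367 bases. GGACT was missing from 22 of the 45 transcripts and from 1135 of those 13464. The shorter letters GGAC, which were added after values had been seen, occurred 3.61 times per kb in the median Nduf transcript and 4.20 times per kb in the median of all 13464.

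GGACT counts did not follow the order of the changes among the assembly factors. Ndufaf1, with the greatest change, held no GGACT. It held 10 GGAC (6.89 per kb), 3 of them in an internal exon of 658 bases, exon 2 of 5. Several genes that were not called held more GGAC per kb than Ndufaf1, such as Ndufb10 (9.56) and Ndufb8 (8.82). Ndufaf4 has 3 exons and a last exon of 3308 bases, and held 2 GGACT in that exon. Ndufaf7 has 10 exons and held 1, in exon 9. Ndufaf6, fitted below 0, held 4, in exons 3, 7 and 9 of 9. All GGACT sites of Ndufaf4, Ndufaf7 and Ndufaf6 are printed with 10 bases on either side, 5′ to 3′ on the transcript strand, with GGACT in capitals, so that the sites of genes that rose can be read beside those of a gene that did not.
Ndufaf4, coding, chr4:24901845-24901849, plus strand: ccagaaacatGGACTgctgagaaaa
Ndufaf4, 3′ UTR, chr4:24904956-24904960, plus strand: atgtcatccaGGACTgcttttgtca
Ndufaf7, coding, chr17:78946364-78946368, plus strand: cagctgatgtGGACTtcagttacct
Ndufaf6, coding, chr4:11070313-11070317, minus strand: ctcaggttaaGGACTcagtctctga
Ndufaf6, coding, chr4:11070288-11070292, minus strand: gaaaacaattGGACTgatgcgcatg
Ndufaf6, coding, chr4:11059092-11059096, minus strand: tttcacaagaGGACTttctacggag
Ndufaf6, coding, chr4:11051210-11051214, minus strand: tttctctagaGGACTacttaaagaa
Whether any of these sites carried m6A was not measured in the table used.

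**Figure D4:**
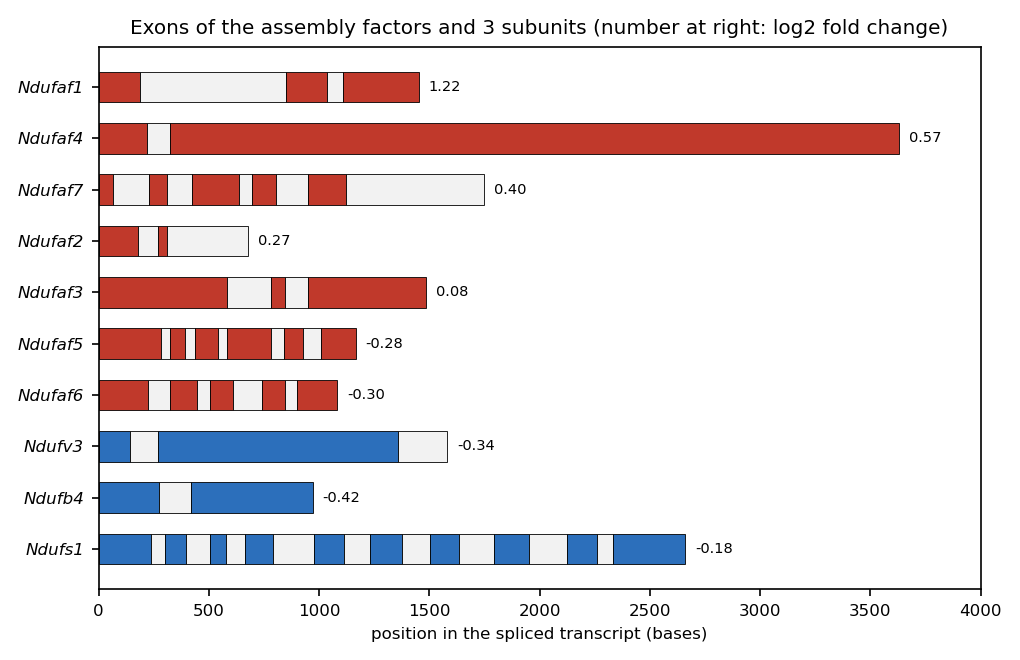
Exons of the 7 assembly factors (red) and 3 subunit genes (blue) along the spliced transcript (x axis, bases), drawn to scale with neighbouring exons in alternating shade and the log2 fold change at the right. Ndufaf1 has an internal exon of 658 bases, Ndufaf4 a last exon of 3308 bases, and Ndufv3 an internal exon of 1092 bases with a log2 fold change of -0.34.

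Across the 45 genes, Spearman's rho with the log2 fold change was 0.24 for the longest exon, -0.18 for exons per kb, -0.04 for GC content, 0.01 for GGACT per kb and -0.33 for the mean count. Over the 13464 genes, it was 0.01 for the longest exon, -0.15 for exons per kb, 0.32 for GC content and 0.14 for GGACT per kb, and -0.25 for the mean count over 13590. For GGAC per kb, rho was -0.01 over the 45 genes and 0.25 over the 13464 genes. For the longest internal exon, rho was -0.19 over the 44 Nduf genes that have one and 0.095 over 12318 genes. Within the genes named as subunits, rho was 0.05 for the longest exon (38 genes) and -0.31 for the longest internal exon (37 genes). These correlations are across genes measured in the same libraries and are given as descriptions. Among 1397 protein-coding genes whose longest exon was under 400 bases, 5.58% were higher and 16.0% lower, with a median log2 fold change of -0.10. In the same class, 22 Nduf genes named as subunits had a median of -0.12 with 0 called, and 3 assembly factors, Ndufaf2, Ndufaf5 and Ndufaf6, had 0 called. Of those 22 and 3 genes, the ones with an unadjusted p under 0.05 included Ndufs1, Ndufb10, Ndufa11, Ndufaf2 and Ndufaf6. The 3 assembly factors that rose all had a longest exon of at least 625 bases, and so did subunit genes that were not called, such as Ndufv3, Ndufv2 and Ndufs4.

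The promoters of the called genes were read for motifs of nuclear respiratory gene control. GABP and NRF1 are transcription factors known for binding upstream of many genes of the respiratory chain. RefSeq promoter sequences (GRCm38.p6) were matched by symbol for 39 of the 45 genes, giving 41 promoters of 250 bases before the RefSeq transcript start. The NRF1 letters (GCGC, then any base, then TGCGC, on both strands) were in 8 of the 41 promoters (19.5%, of 7 genes) and in 3.74% of 32851 promoters of the same length. The GABP letters (CCGGAAG, on both strands) were in 4 of the 41 (9.76%) and in 6.91% of all promoters. The 32851 promoters belong to 27025 genes, with no filter on expression and no match for GC content. A difference in these shares between Nduf genes and like promoters was not tested. Either motif occurred among the assembly factors in 1 promoter of 6: GABP in that of Ndufaf1 and NRF1 in that of Ndufaf4, while that of Ndufaf7 held neither. The promoters of Ndufaf1 and Ndufaf4, which rose, and of Ndufb4, which fell, are shown 5′ to 3′ on the strand of the gene with the motif matches in capitals, and the pattern of matches differs among all 3.
Ndufaf1, chr2:119662835-119663084, minus strand: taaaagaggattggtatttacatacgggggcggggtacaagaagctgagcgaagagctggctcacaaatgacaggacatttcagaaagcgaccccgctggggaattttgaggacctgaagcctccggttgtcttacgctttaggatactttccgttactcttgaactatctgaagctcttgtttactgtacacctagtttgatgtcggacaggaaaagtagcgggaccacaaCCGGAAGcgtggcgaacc
Ndufaf4, chr4:24897833-24898082, plus strand: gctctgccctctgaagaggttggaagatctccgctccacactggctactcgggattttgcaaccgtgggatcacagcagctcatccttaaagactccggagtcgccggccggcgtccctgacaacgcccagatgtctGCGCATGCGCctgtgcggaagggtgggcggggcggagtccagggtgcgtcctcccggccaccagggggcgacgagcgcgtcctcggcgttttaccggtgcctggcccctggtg
Ndufb4, chr16:37654369-37654618, minus strand: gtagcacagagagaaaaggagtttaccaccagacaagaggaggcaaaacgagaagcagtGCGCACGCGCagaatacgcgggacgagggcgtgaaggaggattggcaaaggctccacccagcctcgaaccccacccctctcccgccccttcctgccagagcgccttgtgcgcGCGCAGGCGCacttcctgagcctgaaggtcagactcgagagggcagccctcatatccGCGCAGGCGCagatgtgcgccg
A match of letters is a description of the window and not a measured binding site. The Ndufb4 window ends at the RefSeq transcript start, and its later part lies inside the GENCODE gene. The Ndufb4 matches after the first fall in that part.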

How the data were processed

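The study deposited 1 table for 8 total RNA libraries (the labels' extraction text describes chromatin RNA). The authors removed ribosomal reads with bowtie2, aligned with STAR to N-masked mm10, kept unique reads, removed duplicates with Picard and ran TEtranscripts with DESeq2. The signal column deposited by the authors is the mean over libraries of size-factor scaled counts. The log2 fold changes, the score (Wald statistic) and the p-values, raw and Benjamini-Hochberg adjusted over 18694 features, were also deposited by the authors. These columns are the authors' comparison, and single values were copied from them, because no library values were analysed here. The name of the table carries the word reverse, which can stand for a strand setting or an inverted contrast. The statistic could be recomputed from the fold change and its SE in every feature (tolerance 1e-06). The p and adjusted p matched their recomputed values within an absolute 1e-06, which does not check values smaller than that.

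Here, members were counted and described by medians (Python 3.11.15, pandas 2.3.3, scipy 1.17.1), and rescaled fold changes were tested again with the deposited SE. The recomputation was tested on simulated data. Gene positions, transcripts and GGACT came from GENCODE vM21, with all 45 genes matched, and near-identical copies from blastn 2.17.0. Depth is known only as summed mean counts. Named were genes past the threshold, all assembly factors, the 7 nuclear core subunits, the 3 genes most abundant per kb, the 2 highest and 2 lowest fold changes, other assembly genes past the threshold and Mettl3. The values of 1 core subunit gene are not reported here, and it stays in the counts and medians. Ndufb10, further MCIA genes and genes cited for overlap or structure were named after their values were seen. The members and lists were chosen with earlier results of these data known. Alternatives were 2 trends removed, re-centring, 3 filters, 2 thresholds and the features adjusted over.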

Additional observations from a re-analysis of the deposited data

How the results depend on the processing

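The 3 genes that were higher became 1 when a change of at least 1.5-fold was also asked for, leaving Ndufaf1. At an adjusted p under 0.01 they became 2, Ndufaf1 and Ndufaf4. The single gene that was lower became 5 with the GC trend removed (among them Ndufb4, Ndufa11, Ndufb10 and Ndufv1) and 3 with p adjusted over features with a mean count of at least 100 (among them Ndufb4 and Ndufb10). It became 0 at an adjusted p under 0.01, 0 with at least 1.5-fold, and 0 among genes with no near-identical copy and little opposite overlap, an alternative chosen after seeing the data. Among all genes tested in the same setting, 1071 were higher and 469 lower with at least 1.5-fold, and 1702 and 1330 with the GC trend removed. Adjustment over features with a mean count of at least 100 gave 1431 and 1667, and an adjusted p under 0.01 gave 1213 and 1006. With the trend of the mean count removed, the 1 lower gene was Ndufaf6 (-0.38, adjusted p = 0.0356) in place of Ndufb4. With the GC trend removed Ndufaf2 was also higher (0.35, adjusted p = 0.0331). In each case the cause of the change was not tested. Under the alternatives other than that chosen after seeing the data, the median of the subunits stayed between -0.12 and -0.05. The median of the assembly factors stayed between 0.26 and 0.35, and the difference of both medians between 0.31 and 0.45. Among the 23 subunit genes with no near-identical copy and little opposite overlap, the median was -0.16. Of 175 values of named genes under alternatives, 158 kept their side of the threshold, 7 of them with a change of sign, in Ndufa4, Ndufaf3, Ndufs3 and Ndufs7. Of these 7 none was called before or after. Genes not called in the deposited scaling could not become called under the 2 stricter thresholds, so part of the 158 was fixed in advance. No paired analysis was possible because the table holds no library values, and for the same reason no library could be left out in turn, so the share of 1 clone or library in any call is unknown. Other filters on members (a mean count of at least 100, or no minimum) left 3 higher and 1 lower, which was fixed in advance. No Nduf gene lay below the minimum, and the only one below 100 was Ndufa4l2 (mean count 14.7), which was not called.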
